A study of Cochliomyia hominivorax with 18 samples.

Results

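Adult and larval midguts of the New World screwworm, Cochliomyia hominivorax, were compared in animals reared with tetracycline. The comparison rests on 6 libraries of the 18 in the series, chosen by the life stage and rearing condition in the sample titles: 3 adult and 3 larval midgut libraries taken during tetracycline (on-Tc). Both groups were production flies of the same species and tissue, and both carried the antibiotic, so they differ by stage and by whatever else went with it. The remaining 12 libraries, 3 per stage from controls taken before tetracycline and 3 per stage from animals after it (post-Tc), were used to ask whether the stage difference was the same in those conditions. As they were taken before and after the drug, its effect cannot be told apart from that of the time of sampling. The labels give no sex, age, dose or number of animals per library, and the p-values therefore reflect only how far these libraries spread, which may be technical.

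The midgut is the part of the insect gut in which food is digested and absorbed. In flies such as Drosophila the larval midgut epithelium is discarded at metamorphosis, and the adult gut is built anew from precursor cells set aside in the larva. Screwworm larvae eat the living flesh of warm-blooded hosts, whereas the adults are free-flying and feed on fluids. Tetracycline inhibits bacterial ribosomes, and insect rearing facilities use it to keep conditional lethal transgenes silent until it is withdrawn. The deposited table lists predicted transcripts under numbered IDs, with no names, so the tissue could not be checked against marker genes and no role can be given for any transcript below. In bulk RNA, fewer cells of a type and less RNA per cell cannot be told apart.

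The 6 libraries held 24662546 to 79783813 counts each, the deepest being adult on-Tc 1. Of 22420 listed transcripts, 5385 had 0 counts in all 6 libraries. Levels are given as CPM, the count scaled to a common library total, after TMM scaling, which corrects those totals for differences in composition. Stage parted the 6 libraries: in a principal component analysis of log2 CPM, component 1 carried 69.7% of the variance and had all 3 adults on one side and all 3 larvae on the other. Correlations of log2 CPM across transcripts were 0.945 to 0.958 among adults, 0.946 to 0.964 among larvae and 0.790 to 0.838 between stages. The second component, with 10.2%, set adult on-Tc 1 and larva on-Tc 1 apart from the other 4 libraries, and both are described further below.

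During tetracycline the 2 stages differed in about as many transcripts in one direction as in the other. Of 12599 transcripts tested with edgeR's quasi-likelihood test, 3112 (24.7%) passed a false discovery rate (FDR) of 0.05, of which 1535 (12.2%) were higher in adults and 1577 (12.5%) higher in larvae. The differences were large: the median fitted fold was 5.63 for transcripts higher in adults and 6.10 for those higher in larvae. Of these, 82 and 83, respectively, had no count in any library of the lower stage; with 3 counts per library put in their place, the medians were 5.30-fold and 5.50-fold. On that scale 875 transcripts were at least 4-fold higher in adults and 935 in larvae, while 141 and 114 reached 128-fold. The 3 adult libraries did not overlap the 3 larval ones for 1465 of the 1535 and 1513 of the 1577, where 20.4% of all transcripts tested were without overlap and higher in adults, 19.7% higher in larvae and 40.1% in all.

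**Figure D1:**
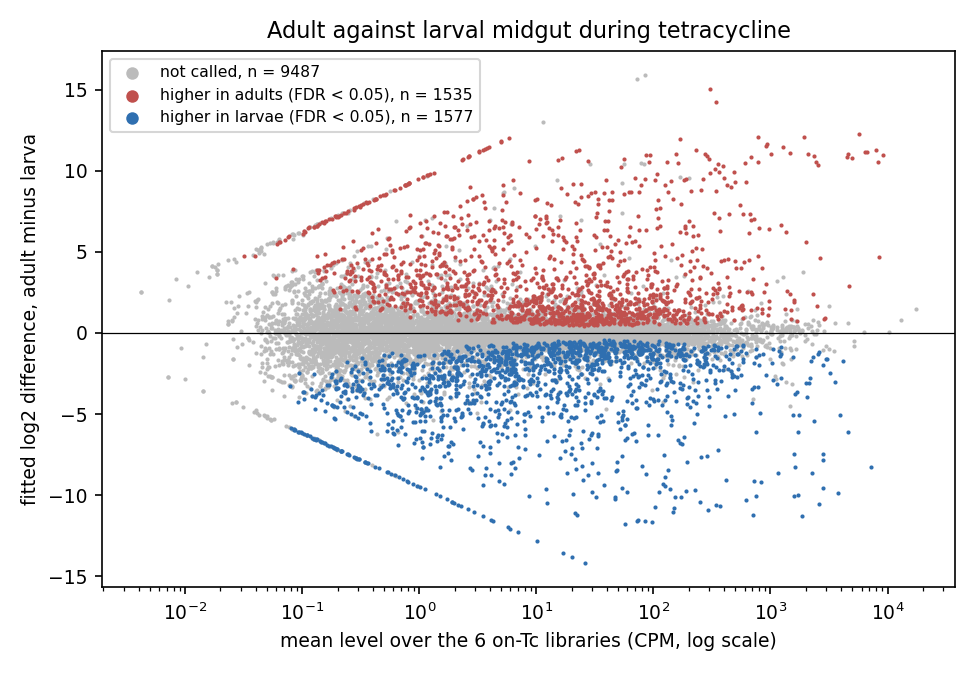
Each point is 1 of the 12599 transcripts tested, with its mean level over the 6 on-Tc libraries (CPM, log scale) against the fitted log2 difference of adults minus larvae; red points passed FDR 0.05 as higher in adults (1535), blue points as higher in larvae (1577) and grey points did not pass. Points along the 2 slanted outer edges are transcripts at 0 counts in one stage, whose fitted difference has no fixed value.

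Stage-biased transcripts held much of the RNA. Those higher in adults took 39.8%, 39.1% and 35.7% of the counts of adult on-Tc 1, 2 and 3, and 5.61%, 4.79% and 4.34% of those of larva on-Tc 1, 2 and 3. Those higher in larvae took 37.6%, 31.8% and 34.8% of the larval libraries and 5.04%, 6.12% and 4.88% of the adult ones. Both classes were picked from these very libraries, so the shares are descriptive. In the 12 libraries that played no part in the choice, the transcripts higher in adults on tetracycline took 42.8% ± 5.84 (SD, n = 3) of the RNA counted in control adults and 49.8% ± 6.06 (SD, n = 3) in post-Tc adults, but 5.31% ± 0.427 (SD, n = 3) and 5.43% ± 0.532 (SD, n = 3) in larvae. The transcripts higher in larvae took 35.4% ± 2.01 (SD, n = 3) and 37.6% ± 0.617 (SD, n = 3) of control and post-Tc larval counts, and 5.76% ± 0.269 (SD, n = 3) and 5.05% ± 1.01 (SD, n = 3) in adults. The division of the RNA between both classes was thus present in all 3 conditions.

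**Figure D2:**
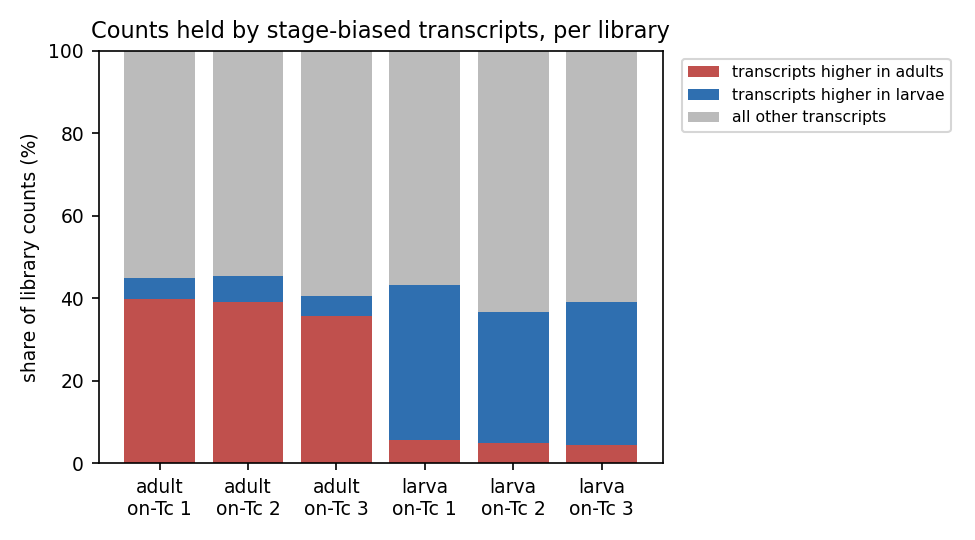
Stacked bars give, for each of the 6 on-Tc libraries, the percent of counts in transcripts higher in adults (red), in transcripts higher in larvae (blue) and in all others (grey). Red took 35.7% to 39.8% of adult libraries and blue 31.8% to 37.6% of larval ones, while the opposite class stayed between 4.34% and 6.12%.

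A few transcripts took a larger part of the adult libraries than of the larval ones. The 10 most abundant transcripts of each library took 18%, 16.3% and 13.9% of counts in adult on-Tc 1, 2 and 3, against 10.2%, 8.91% and 11.6% in larva on-Tc 1, 2 and 3. All 3 adults lay above all 3 larvae (difference 5.86 percentage points; exact permutation test, two-sided, p = 0.1, the smallest p that 3 against 3 allows). In adults 152 to 176 transcripts made up 50% of the counts, and in larvae 184 to 215. The number of transcripts detected did not separate the stages. With every library thinned to 24662546 counts, the adults showed 13870, 12955 and 13282 transcripts and the larvae 13688, 13505 and 13726, overlapping ranges with a difference of -271 (exact permutation test, two-sided, p = 0.4). Without adult on-Tc 2, the shallowest library, that difference was -63, and without adult on-Tc 1 it was -528.

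Adults and larvae had 37 transcripts in common among their 100 most abundant. Those 37 took 13.8% to 14.9% of adult libraries and 12.3% to 14.8% of larval ones, and 4 of them passed the test between stages, 2 in each direction, where 24.7% of all transcripts tested passed and 36.8% to 42.3% of those above 100 CPM. The 63 found in the adult list alone had a median fold of 8.24 between stages and a median rank of 424 in larvae, and 40 of them passed. The 63 found in the larval list alone had a median fold of 7.52 and a median rank of 531 in adults, and 45 passed. The 37 and both sets of 63 were chosen by level in the same libraries. High levels in both stages favour small differences, and a place on 1 list alone favours large ones. Their folds and calls are therefore a description. Only 3 transcripts were among the 10 most abundant of both stages, and none of them passed the test. Of these 3, g12854.t1 and g2175.t1 were nevertheless higher in every on-Tc adult than in any on-Tc larva. The level of g12854.t1 was 21932 to 28411 CPM in adults and 5950 to 11258 CPM in larvae (edgeR FDR 0.107). That of g2175.t1 was 11972 to 22658 CPM in adults and 8149 to 11201 CPM in larvae (edgeR FDR 0.172). The steadiest of the 3, singled out after its values were seen, was g18440.t1. It stood at 8730, 10289 and 12071 CPM in adult on-Tc 1, 2 and 3 and 8051, 11013 and 11372 CPM in larva on-Tc 1, 2 and 3. Its groups overlapped, with a log2 difference of 0.03 (SE 0.26, 95% interval -0.53 to 0.59; edgeR FDR 0.95).

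The share of transcripts called was larger at higher abundance. Among 3195 transcripts with a mean under 1 CPM, 15.8% passed the test, among 3573 between 1 and 10 CPM 25.6%, among 4356 between 10 and 100 CPM 26.2%, among 1286 between 100 and 1000 CPM 36.8%, and among 189 above 1000 CPM 42.3%. The median 95% interval did not narrow steadily with abundance. From the lowest of these 5 classes to the highest it reached 3.94-fold, 1.95-fold, 1.55-fold, 1.65-fold and 1.78-fold to either side of the fitted difference, so it was narrowest between 10 and 100 CPM. For 3018 transcripts (24.0% of those tested) the whole 95% interval lay within a 2-fold difference between the stages, so for these a larger stage difference was outside the interval. For the other transcripts that did not pass, a missing call does not show that the stages were alike.

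The 4 transcripts described in full are those with the largest fitted differences, 2 in each direction, among transcripts past the threshold whose groups did not overlap and which had at least 10 CPM in every library of the higher stage (861 higher in adults and 748 higher in larvae met these terms). The transcript g12543.t1 stood at 17237, 5442 and 11795 CPM in adult on-Tc 1, 2 and 3 and at 1.94, 2.65 and 2.37 CPM in larva on-Tc 1, 2 and 3. Every adult library exceeded every larval one by more than 3 orders of magnitude, with a log2 difference of 12.27 ± 0.82 (SE; edgeR FDR 9.2e-08) that ranged from 11.85 to 12.61 with a library left out. Its adult level was also higher during tetracycline than outside it: the on-Tc adults did not overlap the controls (1156 to 3861 CPM) or the post-Tc adults (964 to 2609 CPM), while larvae stayed between 1.94 and 4.68 CPM in all 9 libraries. The stage difference on tetracycline was 2.69 ± 0.75 (log2, SE) larger than in controls and 2.96 ± 0.75 (log2, SE) larger than post-Tc, but neither difference passed edgeR's test over all transcripts (FDR 0.514 and 0.333). Since g12543.t1 was chosen for its large on-Tc difference, the choice itself favours higher adult levels on tetracycline than outside it. The comparisons with the other conditions are therefore a description.

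The second transcript higher in adults, g2428.t1, was far more uneven. It stood at 240, 4449 and 17 CPM in adult on-Tc 1, 2 and 3 and at 0.299, 0.406 and 0.344 CPM in larva on-Tc 1, 2 and 3. The adult libraries spread over more than 2 orders of magnitude among themselves, yet the lowest of them was well above all larvae. The log2 difference was 12.11 ± 2.01 (SE; edgeR FDR 5.3e-04), and it was 8.5 without adult on-Tc 2, the library with the highest level (edgeR FDR 6.8e-04). Adult levels outside tetracycline were 241 to 824 CPM in controls and 99.3 to 3706 CPM post-Tc.

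On the larval side, g3057.t1 had 554, 1271 and 5212 counts in larva on-Tc 1, 2 and 3, or 16.6, 27.2 and 112 CPM, and 0 counts in all 3 on-Tc adults. Against a floor of 3 counts per library it was at least 592-fold higher in larvae, or at least 249-fold without larva on-Tc 3 (edgeR FDR 3.7e-05 with all libraries and 4.5e-05 without that one). It was not at 0 in every adult midgut: the control adults had 4 to 19 counts (0.123 to 0.439 CPM) and the post-Tc adults 0 to 2. The transcript g4280.t1 stood at 148, 81.6 and 116 CPM in larva on-Tc 1, 2 and 3 and had 2, 0 and 2 counts in adult on-Tc 1, 2 and 3. Its log2 difference of -11.77 (SE 1.24; edgeR FDR 1.1e-05) ranged from -12.38 to -11.48 with a library left out. The adult counts of g4280.t1 all lay below the floor of 3 counts, so the size of this difference is uncertain. In the 6 other adult libraries it had at most 2 counts, and in the 6 other larval libraries 20.5 to 136 CPM.

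**Figure D3:**
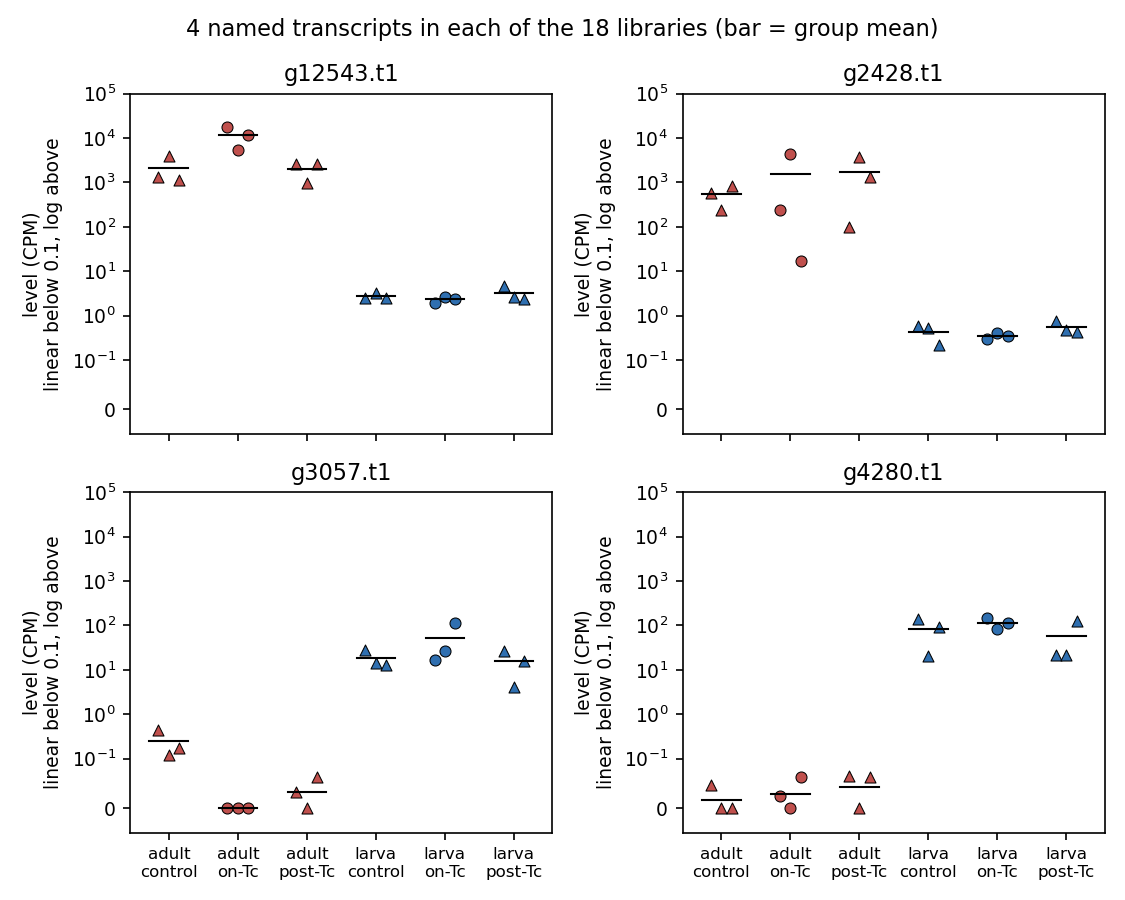
Level (CPM; linear below 0.1, log scale above) of the 4 named transcripts in each of the 18 libraries, adults red and larvae blue, on-Tc libraries as circles and the others as triangles, with a bar at each group mean. The adult libraries of g12543.t1 lie at 5442 to 17237 CPM on tetracycline and 964 to 3861 CPM otherwise, and those of g2428.t1 spread from 17 to 4449 CPM on tetracycline; g3057.t1 is at 0 in the 3 on-Tc adults.

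Few transcripts were limited to a stage in the strict sense. Of 8333 transcripts with at least 1 CPM in all 3 on-Tc adults, 13 had 0 counts in all 3 on-Tc larvae, and of 8280 with at least 1 CPM in all 3 on-Tc larvae, 15 had 0 counts in all 3 on-Tc adults. They were modest in level, with means of 1.24 to 11.6 CPM for the 13 and 1.76 to 52.0 CPM for the 15. In the 6 control and post-Tc libraries of the lower stage, 3 of the 13 and 2 of the 15 were again at 0 throughout, and the others reached at most 19 counts. In the 6 control and post-Tc libraries of their own stage, 4 of the 13 and 6 of the 15 again had at least 1 CPM throughout, and 1 of each met both terms in all 18 libraries. If counts are independent, a count of 0 allows up to 3 counts in a library, or 0.0378 to 0.131 CPM at these depths. Such floors cover counting error only. Among counts of 1 to 20, 66.5% to 71.3% were even in these libraries, so independence is doubtful. The floors may thus be too low, and the folds given against them too high.

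The most abundant stage-biased transcripts were never at 0 in the other stage. Of those higher in adults, 28 had a mean of at least 1000 CPM and a fitted difference of at least 128-fold, and all 28 had counts in every larval library. Their larval level was 0.0511% of the adult level in the median, with an interquartile range of 0.0426% to 0.0684%. The larval values were also steadier than the adult ones: across the 3 libraries of a stage the highest exceeded the lowest by 1.42-fold in the median for larvae and 2.25-fold for adults. The 18 transcripts higher in larvae by the same terms had counts in every adult library, at 0.152% of the larval level in the median (interquartile range 0.0919% to 0.309%). Across transcripts, the log10 levels in the 2 stages correlated at 0.50 for the 28 and 0.78 for the 18, values that share libraries and depth. The term of at least 128-fold also caps the lower level relative to the higher one. By itself it favours small percentages and a positive correlation, so both are a description. Whether these low counts came from the animals' own RNA or from reads of other libraries was not tested.

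Some transcripts were high in 1 library of a stage and low in the other 2, and most of these belonged to adult on-Tc 1 or larva on-Tc 1. Taking transcripts with over 10 CPM and over 10 times the level of both other libraries of the stage, adult on-Tc 1 had 71, adult on-Tc 2 had 12 and adult on-Tc 3 had 3, while larva on-Tc 1 had 57, larva on-Tc 2 had 5 and larva on-Tc 3 had 3. These sets were formed after the values were seen and are a description. The 71 had a median of 68.8 CPM in adult on-Tc 1 and of 0.698 and 0.632 CPM in adult on-Tc 2 and 3. In adults that played no part in the choice they were high again in some libraries of other conditions, with medians of 65.4 CPM in control 3, 24.0 CPM in post-Tc 2 and 33.0 CPM in post-Tc 3, but 0.809 to 1.80 CPM in controls 1 and 2 and 1.01 CPM in post-Tc 1. The adult libraries with high levels thus crossed all 3 rearing conditions. In the 9 larval libraries the median was 0.194 to 0.824 CPM, but 8 to 19 of the 71 reached 10 CPM in each. The 71 took 2.01% of the counts of adult on-Tc 1 and 0.0211% and 0.0298% of adult on-Tc 2 and 3, and in larvae 0.38% to 1.99%, the highest in larva on-Tc 3. Of the 71, 22 passed the stage test as higher in adults and 2 as higher in larvae, where 12.2% and 12.5% of all transcripts tested did so.

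The 57 had a median of 22.7 CPM in larva on-Tc 1 and of 0.770 and 0.883 CPM in larva on-Tc 2 and 3. In the other 6 larval libraries their medians were 1.71 to 4.74 CPM, so no other larval library reached the level of larva on-Tc 1. Among adults the 57 were highest in control 3, with a median of 15.7 CPM, and in on-Tc 1, with 9.80 CPM, against 1.66 and 2.21 CPM in on-Tc 2 and 3. Of the 57, 9 passed the stage test as higher in larvae and 4 as higher in adults, a share near the 24.7% of all transcripts tested. Large differences that missed the threshold often rested on 1 library. In all, 40 transcripts had a fitted difference of at least 128-fold without passing, 31 toward adults and 9 toward larvae, and in 26 of the 40 a single library held over 90% of the summed level of the higher stage. The highest library was adult on-Tc 1 for 26 of the 31. Without both libraries, an alternative chosen after the data were seen, edgeR called 2112 transcripts, 1073 higher in adults and 1039 in larvae, and 1950 of the 2112 were among the 3112.

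**Figure D4:**
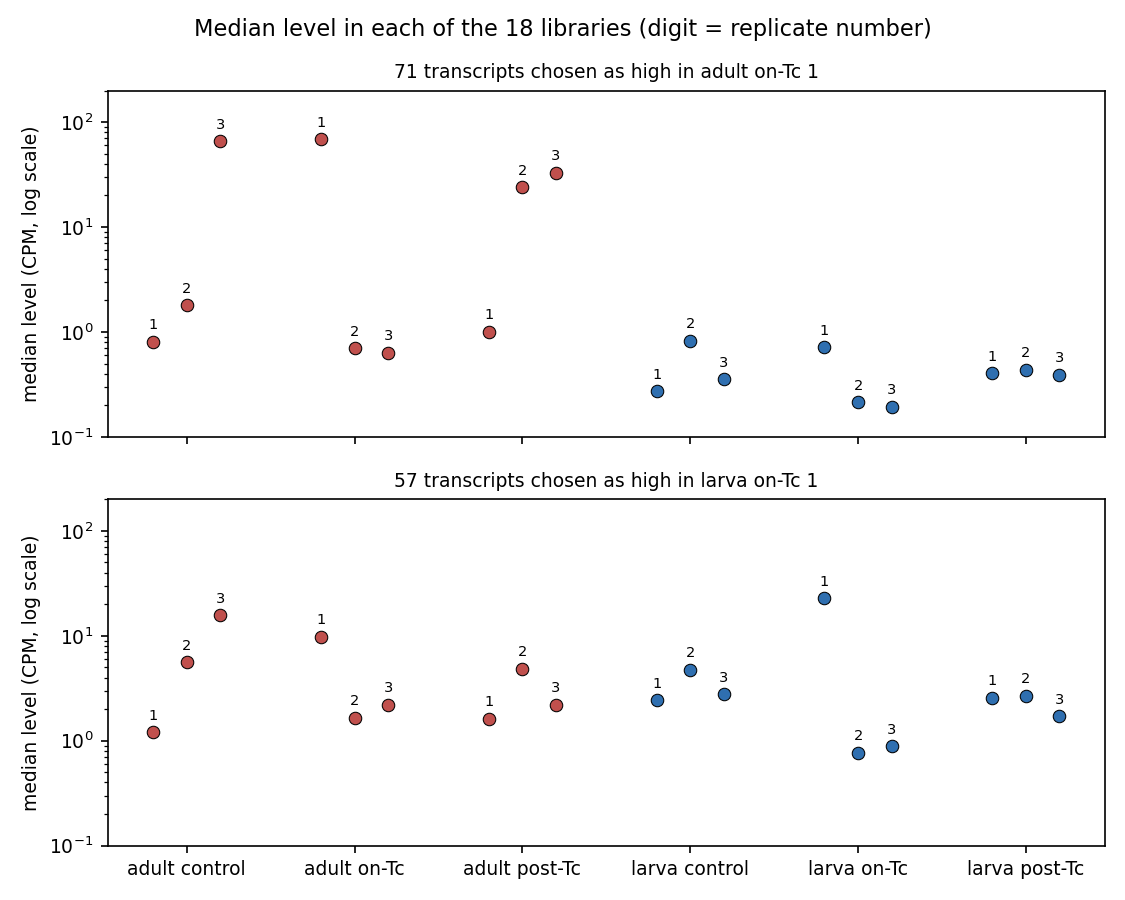
Points give the median level (CPM, log scale) of 71 transcripts chosen as high in adult on-Tc 1 (upper panel) and 57 chosen as high in larva on-Tc 1 (lower panel) in each of the 18 libraries, adults red and larvae blue, numbered by replicate. In the upper panel control 3, on-Tc 1, post-Tc 2 and post-Tc 3 of the adults lie between 24.0 and 68.8 CPM and every other library lies at or below 1.80 CPM.

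Transcripts with neighbouring gene numbers were often biased to the same stage. Whether gene numbers follow the order along chromosomes is not given in the sources used here. Of 1147 genes higher in adults whose next number was also tested, 25.9% were followed by a gene higher in adults, where 12.2% of all tested genes with a tested next number were so followed, and 8.28% by a gene higher in larvae. Of 1115 genes higher in larvae, 27.5% were followed by a gene higher in larvae, against 12.3% of all genes, and 8.79% by one higher in adults. Runs of 5 or more consecutive numbers held 53 genes higher in adults, the longest of 7, and 41 genes higher in larvae, the longest of 6.

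Alternative transcripts of a gene gave 1 case of opposite bias. Only 76 genes had more than 1 transcript among those tested, 156 transcripts in all, of which 10 were higher in adults and 12 in larvae, where 12.2% and 12.5% of all transcripts tested were. In g9484, named because it was the single case, g9484.t1 stood at 4.90, 4.75 and 6.76 CPM in adult on-Tc 1, 2 and 3 and at 0.329, 0.257 and 0.517 CPM in larva on-Tc 1, 2 and 3 (log2 difference 3.88 ± 0.38, SE; edgeR FDR 5.0e-06). The level of g9484.t2 was 1.25, 1.35 and 1.49 CPM in the adults and 9.45, 10.5 and 16.5 CPM in the larvae (log2 difference -3.16, SE 0.53; edgeR FDR 6.2e-04). The first transcript thus took 77.9% to 82.0% of the gene's counts in on-Tc adults and 2.40% to 3.36% in on-Tc larvae, without overlap. In the other 12 libraries its share was 66.7% to 82.3% in adults and 1.47% to 9.28% in larvae. How reads common to both transcripts were assigned is not given in the sources used here, so the split within the gene is uncertain.

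The stage difference during tetracycline was set against those in controls and after tetracycline, which share no library with it. In controls edgeR called 3456 transcripts between stages (27.4%; 14.4% higher in adults, 13% in larvae) and after tetracycline 3866 (30.7%; 15.8% and 14.9%). Of the 1535 transcripts higher in adults on tetracycline, 96.5% were also higher in control adults and 96.0% in post-Tc adults, and of the 1577 higher in larvae 97.0% and 96.1% were so again. Over all transcripts tested, the shares with the same direction as on tetracycline were 79.3% and 77.5% in controls and 75.3% and 78.2% post-Tc, for transcripts higher in adults and in larvae. In all 3 comparisons alike, 934 of the 1535 and 886 of the 1577 passed. On tetracycline alone, 339 of the 1535 and 352 of the 1577 passed, of which 253 and 271 had the same direction in both other comparisons. Conversely, 426 transcripts higher in adults and 316 higher in larvae passed in controls and post-Tc but not on tetracycline. Of these, 409 and 301 had the same direction on tetracycline. Across the 12599 transcripts the fitted log2 differences on tetracycline correlated at 0.863 with those in controls and at 0.845 with those post-Tc (Spearman 0.763 and 0.742); transcripts are not independent replicates, and the fits share 1 estimate of spread and 1 scaling.

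**Figure D5:**
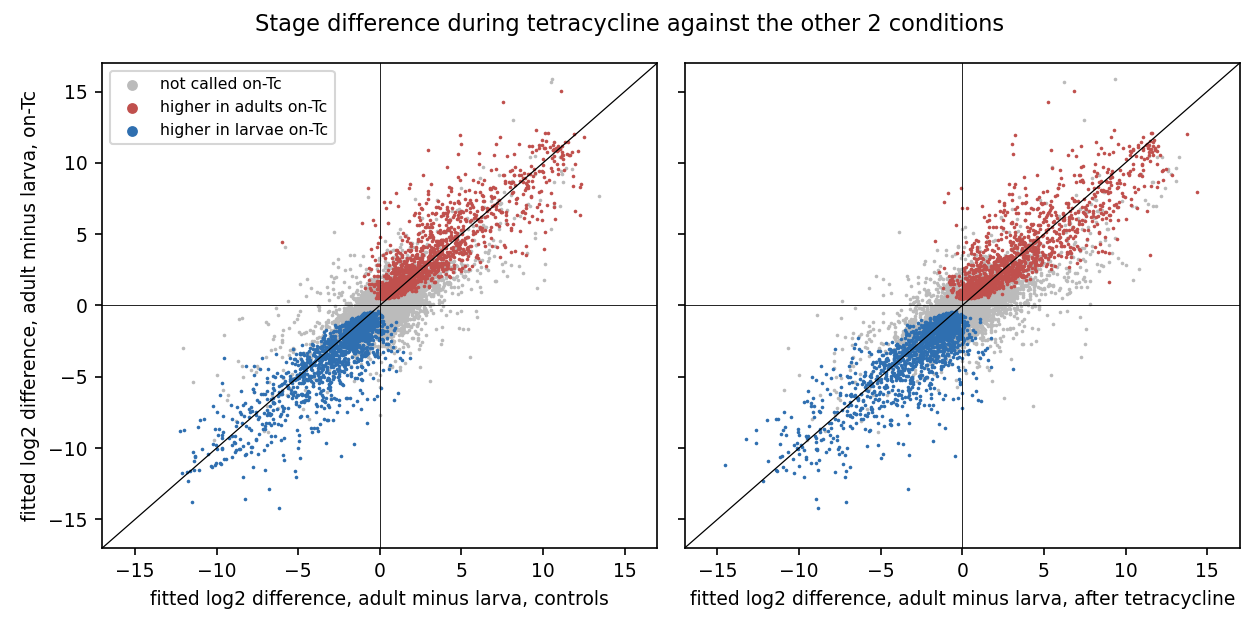
Each point is 1 of 12599 transcripts, with its fitted log2 difference of adults minus larvae on tetracycline (vertical) against that in controls (left) and after tetracycline (right); the slanted line marks equal differences, red and blue points passed FDR 0.05 on tetracycline as higher in adults or in larvae. Of the red points 96.5% and 96.0%, and of the blue points 97.0% and 96.1%, have the same direction in controls and after tetracycline.

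Calls in opposite directions were rare. Against controls they were made for 2 transcripts, and against post-Tc for 5, all named here after their values were seen. The first 2 were g13335.t1 (log2 difference 4.44 on tetracycline, -6.03 in controls), with at most 0.441 CPM in any of the 18 libraries, and g4084.t1 (-1.20 and 0.96), with up to 11.8 CPM. The 5 were g3123.t1 and g978.t1, higher in adults on tetracycline, and g1132.t1, g8854.t1 and g7319.t1, higher in larvae on tetracycline. In none of these 7 did the difference between the conditions pass the test given next.

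The test of that difference itself, transcript by transcript, called 0 of 12599 (0.0%) both for on-Tc against control and for on-Tc against post-Tc (edgeR's quasi-likelihood test, smallest FDR 0.0906 and 0.059). At an unadjusted p under 0.05 there were 903 transcripts (7.17%) against control and 1335 (10.6%) against post-Tc. With no difference in any transcript, a share near 0.05 would be expected, and both shares were above it. The 0 calls therefore do not show that the stage difference was unchanged. DESeq2 called 52 and 138 and limma-voom 0 and 0. The typical 95% interval of such a difference of differences reached 2.57-fold to either side, so for many transcripts a modest change in the stage difference was not detectable. Without adult on-Tc 2, edgeR called 5 transcripts against post-Tc, and without larva on-Tc 2 it called 2.

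The smallest p in each direction belonged to transcripts that missed the threshold. For on-Tc against control, g17163.t1 stood at 1.11, 1.13 and 1.20 CPM in adult on-Tc 1, 2 and 3 and at 4.72, 5.26 and 7.30 CPM in larva on-Tc 1, 2 and 3, without overlap. In controls its stages overlapped, at 4.18 to 6.76 CPM in adults and 4.58 to 5.32 CPM in larvae, and the stage difference on tetracycline was lower by 2.46 on the log2 scale (difference of differences -2.46, SE 0.37; edgeR FDR 0.0906; DESeq2 FDR 6.7e-08). In the other direction g13335.t1, described above, had a difference of differences of 10.47 ± 1.70 (log2, SE; edgeR FDR 0.229). It rests on a fitted value against control adults at 0 counts.

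For on-Tc against post-Tc, g13005.t1 stood at 1013, 732 and 1984 CPM in adult on-Tc 1, 2 and 3 and at 366, 480 and 498 CPM in larva on-Tc 1, 2 and 3. All 3 on-Tc adults lay above every other library of the series, where post-Tc adults had 266 to 302 CPM, control adults 240 to 294 CPM, and larvae outside tetracycline 338 to 523 CPM. The difference of differences was 2.21 ± 0.42 (log2, SE; edgeR FDR 0.322). It passed without adult on-Tc 2, the lowest of the on-Tc adults (2.48, edgeR FDR 0.0382), but not with any other single on-Tc library left out. Without adult on-Tc 3, the highest, it was 1.70 (edgeR FDR 0.515). The other transcript, g6429.t1, had 0.580, 0.262 and 0.443 CPM in adult on-Tc 1, 2 and 3, 0.120, 0.0855 and 0.215 CPM in larva on-Tc 1, 2 and 3, and 1.14 to 1.71 CPM in post-Tc adults against 0 counts in all post-Tc larvae. Its difference of differences of -7.35 (log2, SE 0.98; edgeR FDR 0.059) rests on those zeros.

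Transcripts higher in adults had a smaller median stage difference on tetracycline than after it. To compare sizes without selecting on the libraries compared, the 1814 transcripts called higher in adults in controls were taken: their median stage difference was 1.79 (log2) on tetracycline and 2.23 after it, and it was larger on tetracycline for 32.7% of them. For the 1642 called higher in larvae in controls the medians were -1.71 and -1.64, with 45.6% larger on tetracycline. Taking instead the transcripts called after tetracycline, the medians on tetracycline and in controls were 1.66 and 2.0 for 1989 higher in adults and -1.34 and -1.40 for 1877 higher in larvae. Over all transcripts tested the median stage difference was -0.01 on tetracycline, 0.01 in controls and -0.04 post-Tc. These medians over transcripts have no test, and scaling enters each of them.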

How the data were processed

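The 18 midgut libraries were made from poly(A)-selected RNA, per the labels' protocols. The authors deposited raw, unnormalized counts, 1 row per predicted transcript, as whole numbers with unequal column sums show. The submitters' processing notes list Trimmomatic, STAR, featureCounts and DESeq2, with neither version nor role. The sources used here do not give the genome build, annotation, strand setting or pair counting. Among counts of 1 to 20, 66.5% to 71.3% were even in the 6 on-Tc libraries, so halved counts were tried.

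Columns were matched to samples by library name and grouped by title. Within-group pairs of on-Tc libraries were no copies of each other, with a chi-square of 271 to 655 per degree of freedom. Counts from all 18 libraries were fitted with edgeR 4.0.16 in R 4.3.3, with a mean per group, filterByExpr (minimum count 10, total 15), TMM scaling and the quasi-likelihood test; p-values of the 12599 transcripts tested were adjusted together (Benjamini-Hochberg), and FDR under 0.05 was called. Interactions are differences between stage differences. Standard errors come from the F statistic, and log2 CPM used a prior count of 2. Single values per library had exact permutation tests. Named transcripts were, per comparison, at most 2 in each direction by the terms stated in the text, and for the interactions the smallest p where none passed. Gene lists and tissue markers listed by name could not be used, since its IDs come without names. Members and rules were chosen with earlier results of these data known. As alternatives, limma-voom (limma 3.58.1) and DESeq2 1.42.0 were run, as were other scalings, filters and features, covariates, and libraries left out. The edgeR script was tested on simulated data. Figures used matplotlib 3.10.9.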

Additional observations from a re-analysis of the deposited data

How the results depend on the processing

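The count of 3112 transcripts between stages on tetracycline stayed within 1.5 times under every alternative run, from 2112 without adult on-Tc 1 and larva on-Tc 1 (added after the data were seen) to 3944 with DESeq2, and 2165 to 2806 with 1 library left out, and between 42.6% and 53.0% of the calls were higher in adults. It was 2872 with limma-voom, 2425 with only the 6 libraries compared, and 2962 with library totals alone, which moved the median over all transcripts to -0.12 (log2). With 0 calls in the main analysis, the difference between stage differences gave 52 (against control) and 138 (against post-Tc) with DESeq2; against post-Tc it gave 1 with RLE size factors, 1 when the digit in the library name was a covariate, 1 with only the libraries of the groups compared, and 0 to 5 with a library left out. Of the transcripts named for these differences, g6429.t1 passed in 5 alternatives, g13005.t1 in 2 and g17163.t1 in 1. The transcript g13335.t1 passed in none of the 15 alternatives that fitted it, but DESeq2 gave it no FDR. It had no fitted value with a filter of at least 1 CPM in 3 libraries or with counts halved. The 6 transcripts given for the stage difference itself, both of g9484 included, passed in every alternative run. Same-numbered adult and larval on-Tc libraries deviated together with correlations of 0.117, 0.0543 and 0.0274 for numbers 1, 2 and 3. Between different numbers the correlations were -0.137 to 0.0976, so the value for number 1 lay above all of these. Whether the numbers pair the samples cannot be told from these values. With the replicate number as a block edgeR called 2820 transcripts between stages and 0 for both differences of differences. With libraries left out the difference in transcripts detected ranged from -528 to -63 and that in the share of the 10 most abundant from 4.89 to 6.95 percentage points. Depth limits what can be said of transcripts under 1 CPM.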
